A study of Mus musculus with 4 samples.

Results

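The genes described here are 101 protein-coding genes of the deposited table that encode subunits of the 5 complexes of oxidative phosphorylation, out of 56748 genes in all and 21970 protein-coding genes. They were picked by a rule on annotation and symbol, set with earlier results of these data known. A gene was taken if it was protein-coding and lay on mitochondrial DNA, or if its symbol began with Nduf followed by a, b, c, s or v and a digit, with Uqcr, with Cox4 to Cox8 or with Atp5, or was Sdha, Sdhb, Sdhc or Sdhd. Of the members, 13 are mitochondrially encoded and 88 nuclear-encoded. Complex I has 7 mitochondrial and 37 nuclear members, complex II 4 nuclear members, complex III 1 and 8, complex IV 3 and 21, and complex V 2 and 18. Ndufa4 and Ndufa4l2 were counted with complex IV, where the Ndufa4 protein is now placed despite its name. Some subunits fall outside the symbol rule, such as Ndufab1 of complex I and Cyc1 of complex III, and were read in a separate list.

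Oxidative phosphorylation makes most of the ATP of a hepatocyte. Complexes I and II pass electrons from NADH and succinate to coenzyme Q, complex III hands them through cytochrome c to complex IV, which reduces oxygen, and the protons pumped on the way drive complex V, the ATP synthase. The catalytic cores of complexes I, III and IV and the proton channel of complex V are built partly from proteins encoded on mitochondrial DNA, which is transcribed as long polycistronic RNAs inside the organelle. All other subunits, and all of complex II, are made from nuclear genes and imported, so an assembled complex needs both genomes.

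The libraries came from livers of NSG mice, an immunodeficient strain without mature T, B and NK cells, whose genotype is given as WT. Untreated 1 and 2 came from 2 mice that received nothing. JIB-04 1 and 2 came from 2 mice dosed with JIB-04, which inhibits histone demethylases of the Jumonji family, by oral gavage at 55 mg/kg, 5 doses in all and 2 per week. No group was gavaged with vehicle alone, so the gavage and the compound cannot be told apart, and age and sex are not stated in the labels. The comparison asks how the messages for the respiratory chain and ATP synthase stood in liver after repeated dosing.

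Each library held between 36469514 and 43283827 reads recovered from the deposited values. Hepatocyte markers were abundant in all 4 libraries (summed FPKM of 7 markers 65893 and 63068 in untreated 1 and 2, 46378 and 38473 in JIB-04 1 and 2). FPKM is a level scaled to gene length and library size. Albumin (Alb), the main secreted liver protein, took 10.9% and 11.2% of reads in untreated 1 and 2 but 7.35% and 5.40% in JIB-04 1 and 2. Hemoglobin and other erythroid markers summed to 2952 and 1845 FPKM against 655 and 1782, lowest in JIB-04 1. In these bulk samples, fewer cells of a type and less RNA per cell cannot be told apart. Limma on log2(FPKM + 1), with a mean FPKM of at least 1 needed for testing, called 232 of 10819 genes at an adjusted p under 0.05, or 2.14% (165 higher in JIB-04, 1.53%, and 67 lower, 0.619%). It called 0 of the 7 hepatocyte markers. Alb had a log2 change of -0.80, and the others ranged from -0.57 (Ahsg) to 0.29 (Fgb), with Fgb alone above 0.

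Several mitochondrial genes have near-identical copies in nuclear DNA, and the following stretches show how far reads from the 2 genomes could be told apart. Each is 90 bases of the sense strand from the GENCODE M21 transcripts (GRCm38), with mismatches between gene and copy in capitals. mt-Co3, for the third core subunit of complex IV, and its chromosome 1 copy Gm28437 have the same 90 first bases and no mismatch over 783 aligned bases. mt-Nd3, a membrane subunit of complex I, differs from Gm28438 at 1 of 345 bases. mt-Co1, for the catalytic subunit of complex IV, differs from the chromosome 2 copy Gm13340 at 37 of 1545 bases, 3 of them between positions 9 and 98 counted from the first base of the transcript.
mt-Co3: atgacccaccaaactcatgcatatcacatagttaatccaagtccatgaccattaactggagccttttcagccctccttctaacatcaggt
Gm28437: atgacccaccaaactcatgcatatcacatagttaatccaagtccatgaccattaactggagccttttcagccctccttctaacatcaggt
mt-Nd3: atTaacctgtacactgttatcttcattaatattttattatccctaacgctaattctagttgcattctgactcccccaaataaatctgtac
Gm28438: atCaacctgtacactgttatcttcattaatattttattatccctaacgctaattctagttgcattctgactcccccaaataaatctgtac
mt-Co1: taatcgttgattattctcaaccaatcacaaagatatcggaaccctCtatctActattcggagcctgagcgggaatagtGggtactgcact
Gm13340: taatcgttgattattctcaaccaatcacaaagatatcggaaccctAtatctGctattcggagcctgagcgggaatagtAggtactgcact

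No message for a subunit of oxidative phosphorylation was called different between JIB-04 and untreated liver, and for most nuclear ones the interval of the change was narrow. Of the 90 members that reached the level for testing (13 mitochondrial and 77 nuclear), limma called 0, beside the 2.14% called over all genes. Unadjusted limma p was under 0.05 for 2 of the 90 members, mt-Nd4l and Ndufa12, beside 1680 of all 10819 tested genes. Voom on recovered reads also called 0 of the members, though it called more of all tested genes than limma did. The median log2 change was 0.03 over the 90 members, 0.19 over the mitochondrial and 0.00225 over the nuclear members, against 0.00682 over all tested genes. The 95% interval of the change lay within 1.5-fold in both directions for 70 of 77 nuclear members but for only 3 of 13 mitochondrial ones, and for 7237 of all 10819 tested genes. With 2 libraries per group, the intervals of most single mitochondrial messages therefore did not exclude a change of 1.5-fold.

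Both JIB-04 libraries were above both untreated libraries for 12 of 90 members (13.3%), beside 24.6% of all tested genes. Among them were mt-Nd1, mt-Nd4l, mt-Cytb, mt-Co1 and mt-Co2 from mitochondrial DNA, and Ndufs7, Ndufa12, Uqcrc2, Atp5b, Atp5mpl and Atp5g1 from the nucleus. Both were below both untreated libraries for 6 (6.67%, beside 21.8% of all tested genes): Ndufb7, Ndufb9, Ndufc2, Sdhd, Atp5d and Atp5md. In the other 72 members the groups overlapped. None of the 18 differences passed the test.

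**Figure D1:**
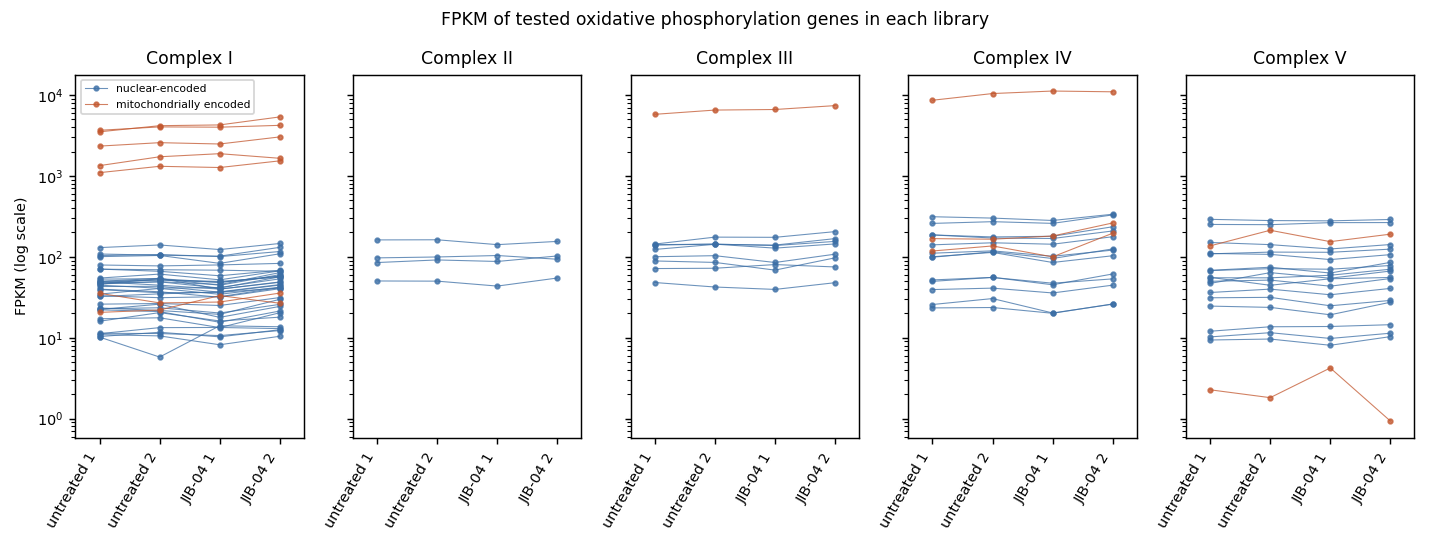
FPKM of the 90 tested members on a log scale, 1 panel per complex and 1 line per gene joining its value in the 4 libraries; nuclear genes are blue and mitochondrial genes orange. Most lines are close to level across the libraries, with a dip at JIB-04 1 in many nuclear genes, and the mitochondrial genes spread from 2.31 (mt-Atp8) to 10289 (mt-Co1) mean FPKM.

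**Figure D2:**
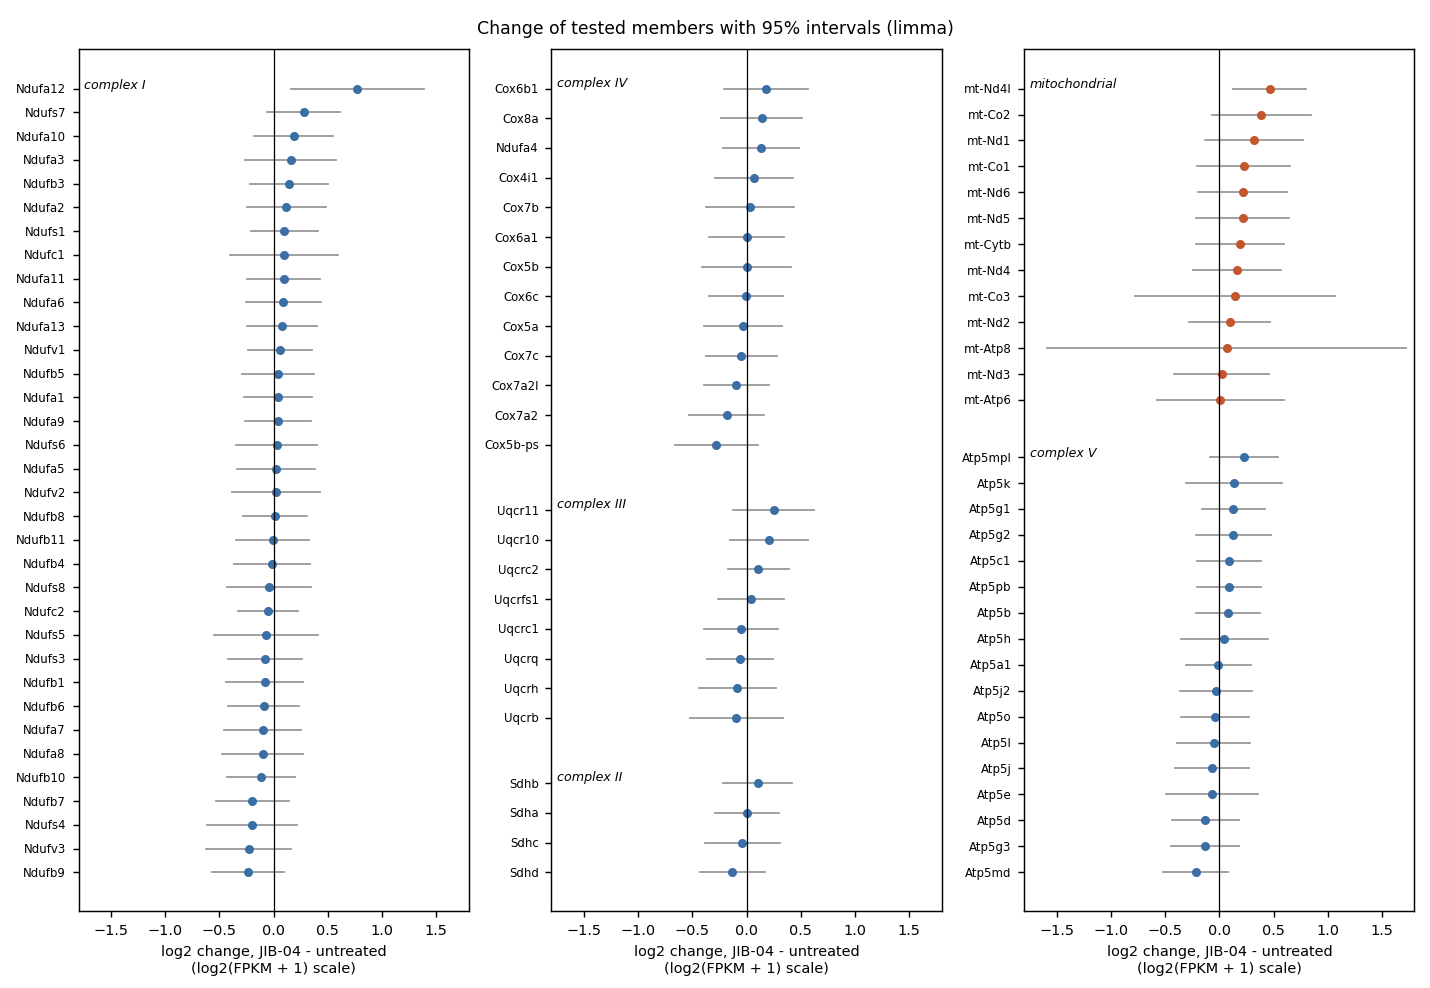
Log2 change (JIB-04 minus untreated, log2(FPKM + 1) scale) of the tested members with 95% intervals from limma, by complex (1 nuclear member is not shown), nuclear genes in blue and mitochondrial genes in orange. Intervals exclude 0 for Ndufa12 and mt-Nd4l alone, whose adjusted p-values are 0.219 and 0.177, and all 13 mitochondrial points lie at or right of 0 on this scaling, while mt-Atp6, mt-Nd3, mt-Nd4, mt-Nd5 and mt-Nd6 lie left of 0 with quantile normalization.

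All 13 mitochondrially encoded members had a log2 change above 0, from 0.00623 to 0.46, but the direction of 5 of them depended on the scaling (mt-Atp6, mt-Nd3, mt-Nd4, mt-Nd5 and mt-Nd6), and none passed the test. Their summed FPKM was 26792 and 31310 in untreated 1 and 2, compared with 32198 and 34832 in JIB-04 1 and 2. Both JIB-04 sums were above both untreated sums, a 1.15-fold difference of the means (29051 ± 3194 and 33515 ± 1863, SD, n = 2; exact two-sided permutation p = 0.33, the smallest that 2 against 2 libraries can give). The 13 genes share a template and a library, so their common direction is not 13 separate observations. Values rescaled without the 50 most abundant and the mitochondrial genes gave a median of 0.13 and a 1.11-fold difference of the sums. With quantile normalization the median was 0.041, and mt-Nd4, mt-Nd5 and mt-Nd6 then stood at -0.10, -0.13 and -0.06. mt-Atp6 and mt-Nd3 were below 0 with quantile normalization (-0.13 and -0.04) and with the rescaled values (-0.05 and -0.03), and mt-Atp6 was also just below 0 after centring on the median. The mitochondrial ribosomal RNAs, read from the same DNA, summed to 889 and 848 FPKM in untreated liver, beside 1089 and 1237 in JIB-04 1 and 2, 1.34-fold apart (exact permutation p = 0.33).

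Among the complex I core subunits on mitochondrial DNA, mt-Nd1, which lies beside the coenzyme Q site, was at 3506 and 4174 FPKM in untreated 1 and 2 and at 4264 and 5356 in JIB-04 1 and 2. Both treated libraries were higher, JIB-04 1 only just so, and the log2 change was 0.32 (95% interval -0.13 to 0.77; limma adjusted p = 0.501). mt-Nd4l (ENSMUSG00000065947, GRCm39 mitochondrial DNA 9877 to 10173), a small membrane subunit, was at 20.6 and 22.0 against 33.1 and 26.7 FPKM. It had the largest change of the mitochondrial members, 0.46 with a standard error of 0.142 (unadjusted p = 0.0144, adjusted p = 0.177; adjusted p from 0.126 to 0.517 over 13 alternatives). The values rested on 224, 247, 422 and 291 reads, and 98.5% of its 100-base windows also occur in the chromosome 1 copy Gm10222. With the copy's FPKM added, the 4 libraries stood at 46.9, 54.4, 63.3 and 54.6, so that untreated 2 and JIB-04 2 were almost equal.

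The other mitochondrial subunits of complex I belong to its membrane arm, which pumps protons. mt-Nd2 was at 3661 and 4033 FPKM in untreated 1 and 2 and at 4000 and 4215 in JIB-04 1 and 2, mt-Nd4 at 2335, 2574, 2479 and 3032, and mt-Nd5 at 1340, 1723, 1882 and 1650 in the same order. In each the groups overlapped, and untreated 1 was the lowest library. mt-Nd6, the only mitochondrial member on the minus strand, was at 1097, 1314, 1269 and 1534 FPKM, again lowest in untreated 1. mt-Nd3 was at 35.4, 26.9, 27.6 and 35.6 FPKM, with an untreated and a JIB-04 library at each end. Their log2 changes lay between 0.02 (mt-Nd3) and 0.22 (mt-Nd6).

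mt-Cytb, the heme-binding core of complex III and its only mitochondrial subunit, was at 5767 and 6510 FPKM in untreated 1 and 2 and at 6616 and 7388 in JIB-04 1 and 2. The groups did not overlap, but untreated 2 and JIB-04 1 were closer to each other than to their own partners (log2 change 0.19, limma adjusted p = 0.677). mt-Co1, the catalytic subunit of complex IV and the most abundant member, was at 8607 and 10417 against 11189 and 10945 FPKM (log2 change 0.22, adjusted p = 0.635). Untreated 1 stood apart from the other 3 libraries. Quantile normalization left no difference, but by construction it gives a gene of the same rank in all libraries the same value. mt-Co2, which takes the electron from cytochrome c, was at 168 and 165 against 181 and 262 FPKM (log2 change 0.39, adjusted p = 0.413). Only JIB-04 2 was well above the rest. The copy Gm28661 was at 286, 102, 106 and 125 FPKM. With it added mt-Co2 stood at 454, 267, 287 and 388, highest in untreated 1, so that the groups overlapped. With their chromosome 1 copies added, mt-Co1 and mt-Nd4l remained higher in both JIB-04 libraries, each 1.16-fold. The groups overlapped with and without the copies for mt-Nd4, mt-Co3, mt-Atp6 and mt-Nd3. Their sums were 1.12-, 1.14-, 1.10- and 0.988-fold in JIB-04 over untreated.

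mt-Co3 was at 118 and 136 FPKM in untreated 1 and 2 and at 99.8 and 196 in JIB-04 1 and 2. The 2 JIB-04 libraries were the lowest and the highest of the 4. mt-Atp6, the proton channel subunit of the ATP synthase, was at 137 and 213 against 154 and 190 FPKM, with the untreated libraries at both ends. mt-Atp8, its short partner, rested on 17, 14, 37 and 7 reads (2.27, 1.82, 4.23 and 0.934 FPKM), so no difference was detectable at this depth (95% interval of the log2 change -1.59 to 1.72). The reading frames of mt-Atp8 and mt-Atp6 overlap between positions 7927 and 7969, and those of mt-Nd4l and mt-Nd4 between 10167 and 10173, so reads there may belong to either gene.

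The levels of the mitochondrial genes differed by over 3 orders of magnitude. The 5 whose sequence is almost wholly present in annotated nuclear copies were among the low ones. So was mt-Atp8, which has no window in another annotated transcript. Copies without an annotated transcript were not searched. On mitochondrial DNA mt-Atp8 lies between mt-Co2 and mt-Atp6, and the stretch between their chromosome 1 copies (24653732 to 24653966) was not examined for it. The 5 genes with over 90% of their 100-base windows in another annotated transcript (mt-Co3 99.9%, mt-Co2 99.5%, mt-Atp6 99.5%, mt-Nd4l 98.5% and mt-Nd3 97.6%) averaged between 25.6 and 194 FPKM over the 4 libraries. The 6 genes with under 5% shared windows had a median of 2813 FPKM, from 2.31 for mt-Atp8 to 6570 for mt-Cytb. mt-Co1, with 30.8% shared, and mt-Nd4, with 60.8%, averaged 10289 and 2605. The copies of mt-Co1 (in part), mt-Co2, mt-Atp6, mt-Co3, mt-Nd3, mt-Nd4l and mt-Nd4 lie in a row on chromosome 1 between 24650616 and 24655278 (GRCm39, minus strand), in the order of mitochondrial DNA, and averaged between 29.2 and 201 FPKM. How the authors assigned a read that fits both places is not stated in the labels, and the part of these copies in the low levels was not tested. The median log2 change was 0.14 over the 5 genes and 0.20 over the 6.

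**Figure D3:**
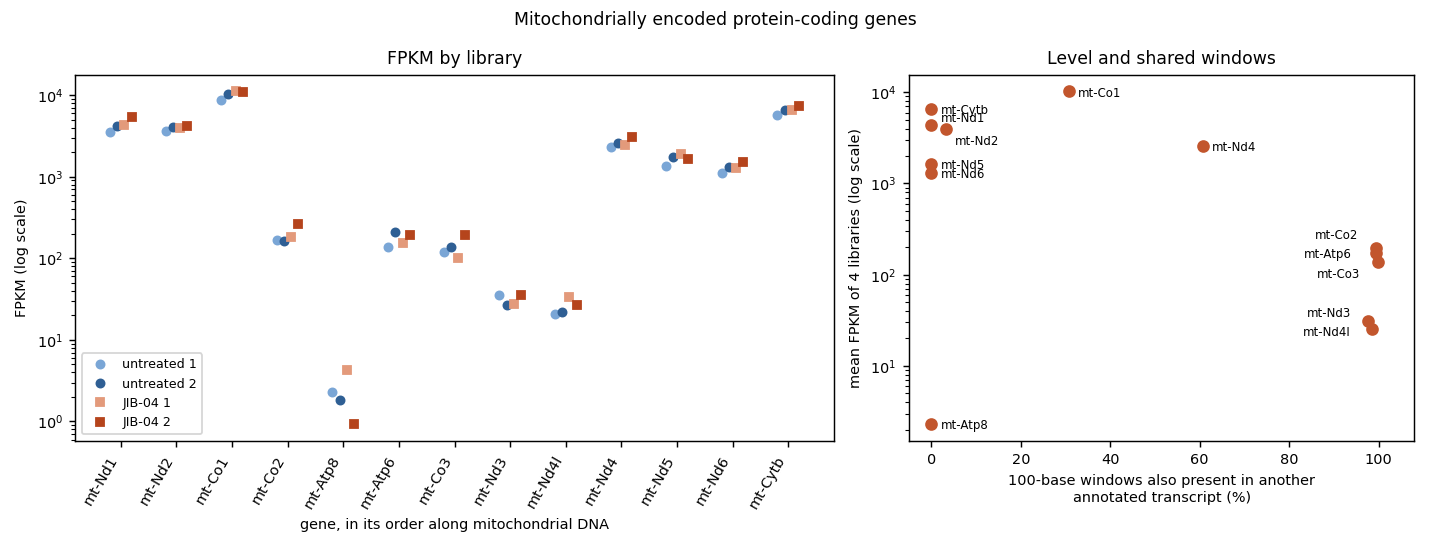
Left, FPKM (log scale) of the 13 mitochondrial protein-coding genes in each library, in their order along mitochondrial DNA; right, mean FPKM (log scale) against the percent of 100-base windows of the transcript also found in another annotated transcript. The block from mt-Co2 to mt-Nd4l stands below its neighbours in all 4 libraries, and the 5 genes at the right end of the second panel lie between 25.6 and 194 FPKM.

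The nuclear-encoded members had a summed FPKM of 5796 and 5930 in untreated 1 and 2, beside 5497 and 6502 in JIB-04 1 and 2. The JIB-04 libraries were the lowest and the highest, and the means were 1.02-fold apart (5863 ± 94.5 and 5999.8 ± 711, SD, n = 2; exact permutation p = 1). Of 77 tested, 40 had a log2 change above 0 and 37 below, within -0.28 and 0.77. The direction of the near-zero median depended on scaling, at -0.054 after rescaling without the 50 most abundant and mitochondrial genes and -0.065 with quantile normalization. Some nuclear members share sequence with gene copies or overlapping genes, so their values are less certain. Among those tested, over 20% of 100-base windows occur in another annotated transcript for Atp5l (69.0%), Ndufb4 (33.4%), Atp5o (30.3%), Atp5h (29.5%), Ndufb6 (28.2%), Ndufa13 (24.0%), Uqcrc2 (22.7%) and Cox5b-ps (21.3%). The ratio of summed mitochondrial to summed nuclear FPKM was 4.62 and 5.28 in untreated liver, beside 5.86 and 5.36 in JIB-04 liver (exact permutation p = 0.33).

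Complex I, which oxidizes NADH, had 35 nuclear members tested, 20 above and 15 below 0, with a median log2 change of 0.02. Ndufa12 (ENSMUSG00000020022, GRCm39 chromosome 10, 94034582 to 94057305), an accessory subunit at the junction of the 2 arms, was at 10.2 and 5.77 FPKM in untreated 1 and 2 and at 14.0 and 13.7 in JIB-04 1 and 2. The JIB-04 libraries nearly coincided, while the untreated libraries differed from each other by more than untreated 1 did from either of them. Its log2 change of 0.77 (SE 0.244, unadjusted p = 0.0224, limma adjusted p = 0.219) was the largest of all members. It was called without untreated 1 (change 1.13, adjusted p = 0.0278) and stood at 0.41 (adjusted p = 0.391) without untreated 2, within adjusted p of 0.0278 to 0.509 over 13 alternatives. Of its 100-base windows, 17.7% occur also in the pseudogene Ndufa12-ps.

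Ndufs7, an iron-sulfur subunit next to the coenzyme Q site, was at 32.3 and 34.9 FPKM in untreated 1 and 2 and at 36.9 and 45.4 in JIB-04 1 and 2, highest in JIB-04 2 (log2 change 0.28, limma adjusted p = 0.427). Ndufb9, an accessory subunit of the membrane arm, was at 49.7 and 54.2 against 39.8 and 48.4, with JIB-04 1 the low library (log2 change -0.24, adjusted p = 0.507). Ndufv1 and Ndufs1, core subunits on the path from NADH to coenzyme Q, had log2 changes of 0.06 and 0.10. Ndufv1, which holds the flavin, was at 49.6 and 51.5 against 49.7 and 56.0 FPKM, and Ndufs1, the largest iron-sulfur subunit, at 11.2 and 13.3 against 13.4 and 12.96. Ndufb11 and Ndufa2, the most abundant nuclear members of the complex, had log2 changes of -0.01 and 0.12.

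Complex II, succinate dehydrogenase, is wholly nuclear and also part of the citrate cycle. Its 4 genes had log2 changes between -0.13 and 0.10, with a median of -0.02. The flavoprotein gene Sdha was at 97.0 and 99.5 FPKM in untreated 1 and 2 and at 104 and 93.3 in JIB-04 1 and 2, and the iron-sulfur gene Sdhb at 85.0 and 91.5 against 87.6 and 102. In both the groups overlapped. Of the membrane anchors, Sdhc was at 50.3 and 50.03 against 43.5 and 54.7 FPKM. Sdhd, the other anchor, was at 162 and 162 against 141 and 155, below untreated in both JIB-04 libraries (log2 change -0.13, 95% interval -0.43 to 0.17; limma adjusted p = 0.703).

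Complex III had 8 nuclear members, 4 above and 4 below 0, with a median of -0.00681. Uqcr11, a small supernumerary subunit, was at 144 and 175 FPKM in untreated 1 and 2 and at 174 and 205 in JIB-04 1 and 2. Untreated 2 and JIB-04 1 had the same level within 1 FPKM (log2 change 0.25, limma adjusted p = 0.532). Uqcr10, another small subunit, gave the same order, with 123 and 143 against 140 and 168. Uqcrc2, a core protein of the matrix side, was at 71.6 and 72.2 against 80.2 and 74.9 FPKM (log2 change 0.11, adjusted p = 0.744), higher in both JIB-04 libraries by a small margin. Uqcrfs1, the Rieske iron-sulfur protein, was at 141 and 144 against 138 and 155, with the untreated libraries between the others.

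Complex IV, cytochrome c oxidase, had 13 nuclear members tested, 6 above and 7 below 0, with a median of -2.62e-05, and in none of them did the groups separate. Cox6a1, the liver form of subunit 6a and the most abundant nuclear member, was at 313 and 301 FPKM in untreated 1 and 2 and at 281 and 336 in JIB-04 1 and 2. The JIB-04 libraries lay on both sides of the untreated ones (log2 change 0.00225, 95% interval -0.34 to 0.35). Cox8a, at 259 and 272 against 259 and 329, Cox6b1, at 186 and 176 against 179 and 235, and Cox4i1, at 186 and 171 against 168 and 209, were all highest in JIB-04 2. Ndufa4 was at 141 and 149 against 143 and 177 FPKM. Cox7a2 was at 100.1 and 113 against 85.1 and 103, Cox7a2l, which joins complexes III and IV in supercomplexes, at 51.8 and 55.6 against 47.2 and 53.4, and Cox7b at 98.8 and 115 against 95.3 and 125. In these 3 JIB-04 1 was the lowest library. The lowest change was that of Cox5b-ps, annotated as protein-coding despite its name, at 25.7 and 30.5 against 20.2 and 26.0 (log2 change -0.28, limma adjusted p = 0.492). It shares 21.3% of its windows with Cox5b, whose own log2 change was -2.62e-05.

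Complex V, the ATP synthase, had 17 nuclear members tested, 8 above and 9 below 0, with a median of -0.00882. The catalytic beta subunit gene Atp5b was at 251.2 and 249.6 FPKM in untreated 1 and 2 and at 264 and 265 in JIB-04 1 and 2, with close agreement within each group. The groups did not overlap, yet the log2 change was only 0.08 (95% interval -0.22 to 0.38; limma adjusted p = 0.835). Atp5a1, for the alpha subunit, was at 290 and 280 against 278 and 289, with the groups interleaved. Atp5mpl, a small membrane subunit, was at 55.1 and 55.0 against 59.2 and 70.3 (log2 change 0.23, adjusted p = 0.499), and Atp5md, needed for dimers of the synthase, at 31.2 and 31.6 against 24.8 and 28.9 (log2 change -0.22, adjusted p = 0.492). These small subunits of the membrane part thus had changes on opposite sides of 0, and both intervals included 0. Atp5g1, Atp5g2 and Atp5g3 encode the same mature subunit c of the rotor. Atp5g3, the most abundant, was at 150.4 and 141 against 125 and 142 FPKM, Atp5g2 at 55.7 and 44.5 against 53.5 and 55.5, and Atp5g1 at 12.02 and 13.7 against 13.8 and 14.5.

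A gap between the 2 JIB-04 libraries was wider than the gap between the groups. JIB-04 2 was above JIB-04 1 in 72 of 77 nuclear members (93.5%), against 49.3% of all tested genes, with a median difference of 0.27 on the log2(FPKM + 1) scale against -0.00406. Untreated 2 was above untreated 1 in 50 of 77, with a median of 0.04. JIB-04 1 was the lowest and JIB-04 2 the highest of the 4 libraries in 35 of 77 nuclear members (45.5%), among them Cox6a1, and in 7.16% of all tested genes. Without JIB-04 1 the median change of the nuclear members was 0.14, and without JIB-04 2 it was -0.14. The sums per complex showed the same gap, with complex I at 1458 in JIB-04 1 and 1779 in JIB-04 2, and complex IV at 1483 and 1848, while the untreated sums were 1577 and 1611 for complex I and 1591 and 1625 for complex IV.

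This gap moved with gene length in all genes, and the members are short. The median JIB-04 2 minus JIB-04 1 was 0.13 over 973 tested genes of up to 1000 bases of deposited length, 0.11 over 1359 genes above 1000 and up to 2000, 0.04 over 3265 genes above 2000 and up to 4000, and -0.06 over 5222 longer genes. Among nuclear members it was 0.32 in 18, 0.27 in 31, 0.25 in 19 and 0.15 in 9 genes of the same ranges, above the median of all genes in each. Mitochondrial ribosomal proteins, also nuclear-encoded, had 66 of 77 genes higher in JIB-04 2, with a median of 0.15, and cytosolic ribosomal proteins 62 of 79, with a median of 0.12. The median change between the groups was 0.02 for the mitochondrial ribosomal proteins, near that of the nuclear members, and 0.29 for the cytosolic ones, of which 1 of 79 was called, beside 2.14% of all tested genes. Erythroid markers were also lower in JIB-04 1 than in JIB-04 2 (655 against 1782 summed FPKM). The part of length and of blood in the gap between the JIB-04 libraries was not tested.

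**Figure D4:**
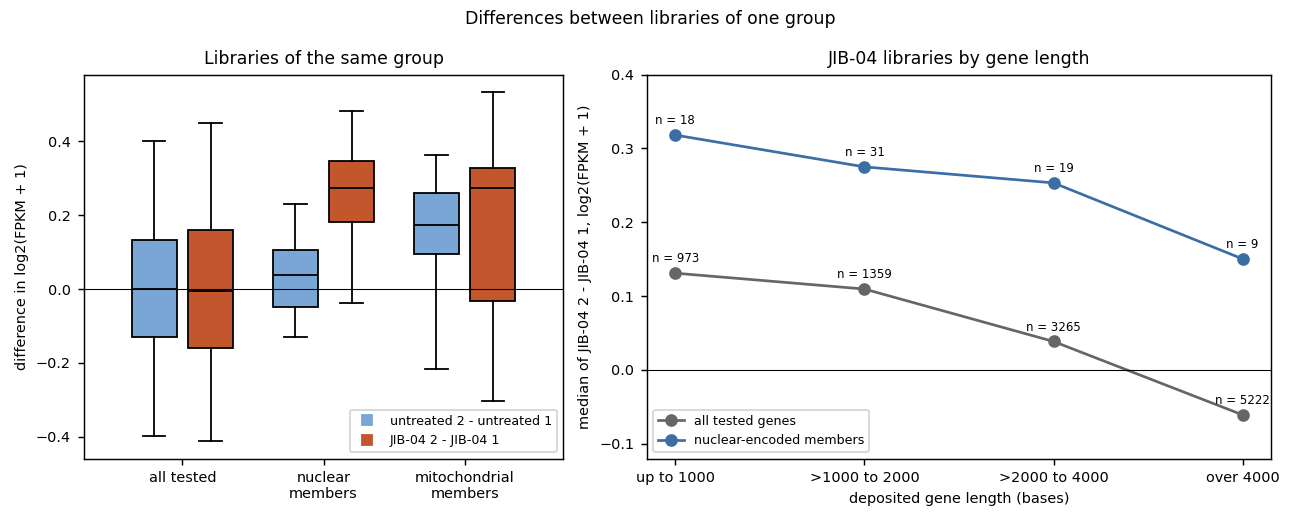
Left, differences in log2(FPKM + 1) between the 2 libraries of a group for all tested genes, nuclear members and mitochondrial members (box, quartiles; line, median; whiskers, 5 to 95 percent of genes); right, median of JIB-04 2 minus JIB-04 1 by deposited gene length in bases, with the number of genes at each point. The nuclear members' box for JIB-04 lies wholly above 0, with a median of 0.27, and their line stays above that of all genes at every length.

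Of the 101 members, 11 had a mean FPKM under 1 and were not tested. mt-Atp8, at a mean of 2.31, and Atp5l, at 9.35, were the lowest members inside the limit, and Cox7a1, at 0.837, and Ndufb2, at 0.777, the highest outside. Ndufb2, for a subunit of complex I, was at 0.601 and 0.762 FPKM in untreated liver, beside 0.825 and 0.919 in JIB-04 1 and 2. Atp5l is also a low value for a subunit of an abundant complex, though it rested on 2214 to 2440 reads per library. FPKM was scaled to deposited lengths of 6443 bases for Atp5l and 5628 for Ndufb2. Their longest coding transcripts have 544 and 4371 bases. For Atp5l, 69.0% of the 100-base windows occur in other annotated transcripts, 47.2% in Gm10221. The part of length and of shared sequence in these low values was not tested. Cox7b2 and Cox8c, known from testis, and a second identifier with the symbol Atp5o were listed at 0 in all 4 libraries, and Ndufb11b was at 0.107 FPKM in untreated 1 and at 0 in the others.

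Complex IV has forms of several subunits that are known from heart, skeletal muscle or brown fat, and in liver their liver or ubiquitous partners carried nearly all the signal. Cox7a1, the muscle form of subunit 7a, was at 1.73 and 0.990 FPKM in untreated 1 and 2 and at 0.523 and 0.102 in JIB-04 1 and 2, resting on 34, 20, 12 and 2 reads. It was lower in both JIB-04 libraries but too low to be tested. Cox7a1 made up 1.70% and 0.866% of the summed FPKM of Cox7a1 and Cox7a2 in untreated 1 and 2, compared with 0.611% and 0.0987% in JIB-04 1 and 2. Cox6a2 and Cox8b, the muscle forms of subunits 6a and 8, were at 1.24 and 1.21 FPKM in untreated 1 and at or below 0.0648 in each of the other 3 libraries. Skeletal muscle markers stood out in the same library, with a summed FPKM of 14.4 over 5 markers in untreated 1 against 0.543, 0.422 and 0.205 in untreated 2, JIB-04 1 and JIB-04 2. Acta1, the actin of skeletal muscle, was at 8.11 FPKM there and at 0.137 or less elsewhere. Of 3 brown fat markers, Ucp1 was listed at 0 in all libraries, while Cidea (14 reads) and Adipoq (5 reads) were highest in untreated 1. The summed FPKM of the 3 was 0.441 there, 0.0837 in JIB-04 1 and 0 in the other libraries. The part of muscle or fat RNA in the Cox6a2, Cox8b and Cox7a1 values was not tested.

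Among the other minor forms, Cox4i2, the form of subunit 4 known from lung, was at 0.381 and 0.0672 FPKM in untreated 1 and 2 and at 0.533 and 0.0691 in JIB-04 1 and 2. Ndufa4l2, which hypoxia is known to raise, was at 0.398 and 1.16 against 0.703 and 0.547, and Cox6b2, known from testis, at 0.960 and 0.382 against 0.316 and 0.713. In all 3 the groups overlapped, and each stayed at or under 0.772% of the sum with its main partner (Cox4i1, Ndufa4 and Cox6b1).

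**Figure D5:**
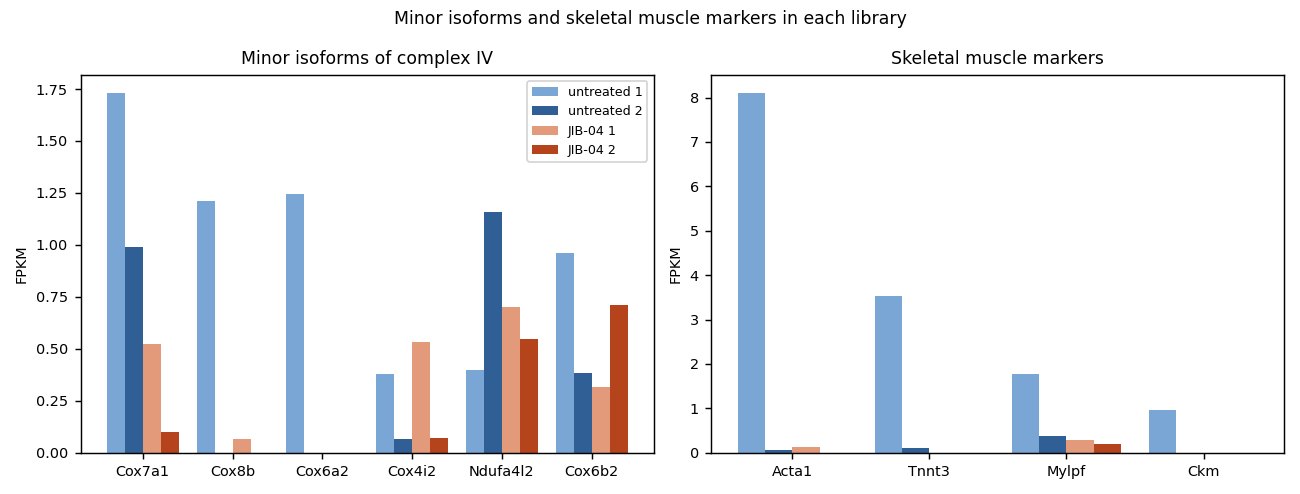
FPKM of 6 minor forms of complex IV subunits (left) and of 4 skeletal muscle markers (right) in each library, as bars from 0. Untreated 1 has the highest bar for Cox7a1, Cox8b, Cox6a2 and Cox6b2 and for all 4 muscle markers, with Acta1 at 8.11 FPKM.

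Genes that build, feed or regulate the complexes were read from 13 lists, of whose genes 149 reached the level for testing. Limma called 0 of them, beside 2.14% of all genes. An unadjusted p under 0.05 was found for 9, beside 1680 of all 10819 tested genes. The median log2 change was 0.02, with 79 above and 70 below 0. By list it ran from -0.16 for electron carriers and subunits outside the symbol rule to 0.22 for the mitochondrial stress response.

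Among assembly factors, Sdhaf4, which helps mature the flavoprotein of complex II, was at 14.9 and 14.4 FPKM in untreated 1 and 2 and at 20.8 and 24.0 in JIB-04 1 and 2. Both JIB-04 libraries were clearly above the untreated ones (log2 change 0.58, limma adjusted p = 0.0750). It was called only with a mean FPKM of at least 5 required (adjusted p = 0.0498; 0.0498 to 0.328 over 13 alternatives). Sdha itself, the protein it serves, had a log2 change of 0.00. Bcs1l, which inserts the Rieske protein into complex III, was at 5.51 and 4.73 against 6.26 and 8.06 (log2 change 0.41, limma adjusted p = 0.263). The factors for complexes I, IV and V had medians of -0.05, -0.000201 and -0.02. Of them, 0 of 18, 0 of 18 and 0 of 6 had an unadjusted p under 0.05 or were called. Over all 10819 tested genes, 1680 had such a p and 2.14% were called.

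All 8 electron carriers and subunits outside the symbol rule had a log2 change below 0, between -0.36 and -0.06, and in 5 of them (62.5%, beside 21.8% of all tested genes) both JIB-04 libraries were below both untreated ones. Cycs, the cytochrome c of body tissues, was at 23.5 and 25.4 FPKM in untreated 1 and 2 and at 17.7 and 19.9 in JIB-04 1 and 2, the lowest change of the 8 (-0.36, limma adjusted p = 0.228). Etfa, an electron carrier of fatty acid oxidation, was at 197 and 188 against 174 and 173 (log2 change -0.15, adjusted p = 0.646). Ndufab1, the acyl carrier protein in complex I, was at 5.01 and 5.39 against 4.39 and 5.57, with the groups overlapping. None of these differences passed the test.

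Of 9 tested regulators of mitochondrial biogenesis, 7 were below 0, with a median log2 change of -0.14. Ppargc1a, which encodes the coactivator PGC-1alpha, was at 1.49 and 1.71 FPKM in untreated 1 and 2 and at 0.860 and 0.715 in JIB-04 1 and 2. Both JIB-04 libraries were about level and below the untreated ones (log2 change -0.54, limma adjusted p = 0.126). Voom alone called it (adjusted p = 0.0238; 0.0238 to 0.4001 over 12 alternatives). Ppara, a receptor that turns on fatty acid oxidation, was at 31.5 and 30.2 against 25.8 and 15.3, lowest in JIB-04 2 (adjusted p = 0.319). Esrra, a nuclear receptor partner of PGC-1alpha, was at 6.28 and 7.66 against 9.41 and 8.61, on the other side of 0 (log2 change 0.33, adjusted p = 0.304). Tfam, the packaging and transcription factor of mitochondrial DNA, was at 11.6 and 13.6 against 12.9 and 11.9, and Polrmt, the mitochondrial RNA polymerase, at 4.22 and 3.59 against 4.28 and 4.49. Their adjusted p-values were 0.978 and 0.690.

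In the citrate cycle, which supplies NADH and succinate, 10 of 14 genes were above 0, with a median log2 change of 0.07. Cs, citrate synthase, was at 13.4 and 16.1 FPKM in untreated 1 and 2 and at 16.7 and 22.1 in JIB-04 1 and 2 (limma adjusted p = 0.374). Of the stress response genes, Atf5, a transcription factor of the mitochondrial unfolded protein response, was at 85.7 and 81.6 against 53.0 and 64.5, lower in both JIB-04 libraries (log2 change -0.51, limma adjusted p = 0.140). Voom alone called it (adjusted p = 0.0464; 0.0464 to 0.423 over 13 alternatives). Hspe1, a mitochondrial chaperonin, was at 90.4 and 96.2 against 113 and 121, higher in both (log2 change 0.32, adjusted p = 0.273). The direction of the stress list's members was thus mixed.

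Promoters of the nuclear members were searched for the motifs of factors known to act on respiratory genes. Whether the gap between the JIB-04 libraries differed with these motifs was not tested. The promoter of Cox6a1 is shown because it holds matches to 3 of the motifs, in the 250 bases before and 50 after the start site (RefSeq, GRCm38.p6, chr5:115348909-115349208, minus strand, written in the sense direction). Capitals mark the matches, in order NRF1 (overlapping matches on both strands), SP1 and ETS.
Cox6a1: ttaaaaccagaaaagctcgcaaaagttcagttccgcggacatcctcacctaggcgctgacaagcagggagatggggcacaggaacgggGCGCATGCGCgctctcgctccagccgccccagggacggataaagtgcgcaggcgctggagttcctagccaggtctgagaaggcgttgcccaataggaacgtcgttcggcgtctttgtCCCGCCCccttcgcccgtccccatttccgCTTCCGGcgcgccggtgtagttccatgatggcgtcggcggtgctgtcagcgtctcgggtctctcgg

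Of the 88 nuclear members, 70 matched a RefSeq promoter by symbol. They include members under the level for testing, and the Atp5o promoter is counted for both identifiers of that symbol. GCGCATGC, the core bound by NRF1, occurred on either strand in 10 of them (14.3%), against 2.80% of all 27025 promoters and 5.79% of the 7963 promoters of tested genes. The 10 were those of Cox6a1, Uqcr11, Ndufa8, Sdhb, Atp5k, Atp5g2, Ndufa6, Uqcrc1, Ndufa11 and Atp5l. AAGATGGCG, for YY1, was found in 6 (8.57%), against 1.49% and 3.58%, and CCGGAAG, for ETS factors such as GABP, in 16 (22.9%), against 9.12% and 19.4%. TCAAGGTCA, for ERR receptors, was found in 2 (2.86%), Sdhd and Atp5g3, against 0.407% and 0.276%, and GGGCGGG, for SP1, in 24 (34.3%), against 25.8% and 47.9%. A match is a string in this window and shows no binding. None of the 10 genes with an NRF1 match was called, beside 2.14% of all tested genes, a share too low for 10 genes to tell. Nrf1 itself was at 0.790 and 0.716 FPKM in untreated liver, beside 0.774 and 0.583 in JIB-04 1 and 2, under the level for testing.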

How the data were processed

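RNA from 4 livers was sequenced. The authors deposited 1 table of FPKM values per gene on GRCm39, per the submitters' processing notes; the aligner, counter, annotation release, read length and strand setting are not stated there. Multiplied by the deposited length, 100% of values were whole multiples of a step (tolerance 0.01), so reads could be recovered. A read in a gene of 1 kb equals 0.0233 to 0.0273 FPKM.

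Values were log2(FPKM + 1), a scale that understates the change of low genes. A mean FPKM of at least 1 was required for testing with limma 3.58.1 (R 4.3.3, trend and robust moderation, two-sided, Benjamini-Hochberg over all 10819). The fit was checked on simulated reads with larger changes than those of the members and no difference shared across a library. That check does not cover the small changes of the members. Called means an adjusted p under 0.05. Summed levels were compared with an exact permutation test. The labels name separate mice, and with 2 per group p-values rest on few degrees of freedom. The replicate numbers do not pair the libraries (correlation of deviations -0.05 over 10819 genes).

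Members and lists were chosen with earlier results of these data known, the lists after the study's tissue and pathway. Named were all mitochondrial members, in each complex the 3 nuclear members of lowest p and the 2 of highest level, the tissue forms, the 2 members on either side of the filter and 2 genes of lowest p per list; other named genes were chosen after their values were seen, and some genes that the rule names are not reported here. The inhibitor Atp5if1 was not matched by that symbol. Shared windows are runs of 100 bases, in either orientation, of a member's longest coding GENCODE M21 transcript (GRCm38) that occur in a transcript of another gene. Alternatives changed the pseudocount, filter, scaling, moderation, tool, replicate block and library left out.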

Additional observations from a re-analysis of the deposited data

How the results depend on the processing

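Limma called 0 of the 90 tested members under each alternative except without untreated 1, where it called 1 (Ndufa12); the range over leaving out each library was 0 to 1. Restricted to the 66 tested members with at most 10% of windows shared, an alternative chosen after seeing the data, it called 0. Of the 66, 0 had an unadjusted p under 0.05, beside 1680 of all 10819 tested genes. Their medians were 0.02 (nuclear) and 0.20 (mitochondrial). The 232 calls over all genes were 20 with no filter on low values, 545 with voom, 357 with the replicate block and 23 to 156 with 1 library left out, lowest without JIB-04 2 (23) and JIB-04 1 (30). The median of the mitochondrial members was 0.041 with quantile normalization and 0.091 to 0.32 with 1 library left out. Leaving out 1 library moved the nuclear median between -0.14 and 0.14, complex I between -0.12 and 0.14, complex III between -0.10 and 0.10, complex IV between -0.16 and 0.15 and complex V between -0.14 and 0.11; each end belongs to a JIB-04 library left out. With the replicate block 0 members were called, and the block changed no call of a member. The medians could not move with it, since each group holds both replicate numbers. Of 532 values of 41 tested named members under alternatives, 1 passed the threshold, Ndufa12 without untreated 1. A lone library left in a group is assumed to vary like the other group. With 2 libraries per group, the intervals of most mitochondrial members did not exclude a change of 1.5-fold. Of the 11 members below a mean FPKM of 1, all but Ndufb2 (124 to 199 reads) rest on at most 48 reads per library.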

Other observations

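Cytosolic ribosomal protein genes, nuclear-encoded and translated on the same ribosomes as the nuclear members, stood apart from them in size. Their median log2 change was 0.29, with 74 of 79 above 0 and 66 of 79 higher in both JIB-04 libraries than in both untreated ones, beside 24.6% of all tested genes, while 1 was called, beside 2.14%. The nuclear members of oxidative phosphorylation had a median of 0.00225 and 7 of 77 so separated, and mitochondrial ribosomal proteins a median of 0.02 and 10 of 77, both shares under the 24.6% of all tested genes. Of the 11 tested periportal and pericentral hepatocyte markers, limma called 1 (beside 2.14% of all tested genes), the pericentral Oat, an aminotransferase of ornithine breakdown, at 153 and 132 FPKM in untreated and 271 and 322 in JIB-04 1 and 2 (adjusted p = 0.0248). The other 4 tested pericentral markers had log2 changes between -0.59 (Slc1a2) and -0.17 (Cyp2e1), and of the 6 periportal ones 4 were below 0, down to -0.91 (Ass1), and 2 above, up to 0.66 (Cyp2f2); none of these passed the test.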
